A study of Homo sapiens with 6 samples.

Results

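CEP genes encode the numbered centrosomal proteins, and 35 of them were measured among the 14884 genes that had a probe set with a single symbol in this array study of Caco-2 cells. Members were taken by symbol, as CEP directly followed by a number. The family was chosen with earlier results of these data known, so its counts are descriptive. Of the 35, 31 had digits alone after CEP and 4 had letters after the number (CEP57L1, CEP85L, CEP170B and CEP295NL), and each had 1 probe set. All 35 are protein-coding in RefSeq. CEP genes without such a probe set were not analysed here. The pseudogenes CEP170P1 and CEP192P1 and the non-coding CEP83-DT were left out of the counts.

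Caco-2, an established human line from a colon carcinoma, takes on features of enterocytes when grown dense. Total RNA was hybridised to 6 single-channel Affymetrix arrays, 2 for each of 3 groups, 17 days after subconfluent cells had been infected with lentivirus. Every group carried a short hairpin RNA (shRNA): a scramble hairpin in the controls, and FAM46A-shRNA#2 or FAM46A-shRNA#4 in the others, a pair of hairpins directed against FAM46A, a gene of the non-canonical poly(A) polymerases. The level of FAM46A was not analysed here, so the groups follow the labels alone. All arrays come from 1 cell line, and the sources used here do not say what separates the biological replicates, so the p-values cover only how far these samples differ, which may be technical spread.

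Each deposited value was a logarithm, taken as log2, from which the 6-array median of the probe set had been subtracted. The level of a gene is therefore not contained in the values, and only differences between arrays are described. For the same reason the identity of the cells could not be checked by the level of marker genes. Bulk RNA cannot tell fewer cells of a kind from less RNA per cell. Errors after ± are standard errors (SE) from limma, with n = 2 arrays in each group, and genes were called at a Benjamini-Hochberg adjusted p under 0.05 over all 14884 genes.

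The centrosome is a pair of centrioles embedded in pericentriolar material that nucleates microtubules. It is copied once per cell cycle in S phase, when PLK4, STIL and SAS-6 start a new centriole beside each old one, and it forms the poles of the mitotic spindle. When a cell leaves the cycle the older centriole can dock at the membrane through its distal appendages and become the base of a primary cilium, while in enterocytes, whose apical face carries microvilli, microtubules are organised largely from the apical surface. CEP proteins serve all of these steps, from the scaffolds of the new centriole to the gate of the cilium.

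Most of the called CEP genes were higher in cells with a hairpin against FAM46A. With the hairpins averaged and set against scramble, 19 of 35 rose and 1 fell (limma, adjusted p under 0.05), or 57.1% of the members. Over all 14884 genes 25.4% were called, 14.8% higher and 10.6% lower. Counted over the protein-coding genes alone, 29.6% were called, 17.4% higher and 12.1% lower. The members' median log2 change was 0.30, beside 0.0028 for all genes and 0.0069 for protein-coding genes. The rises ran from 0.23 (CEP76, 1.18-fold) to 0.80 (CEP126, 1.74-fold), with adjusted p-values (limma) from 0.000264 to 0.0243. They were modest, since 3 members reached 1.5-fold: CEP126, CEP170 and CEP20. Changes above 0.3 on the log2 scale were seen in 48.6% of the members and in 10.8% of all genes.

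**Figure D1:**
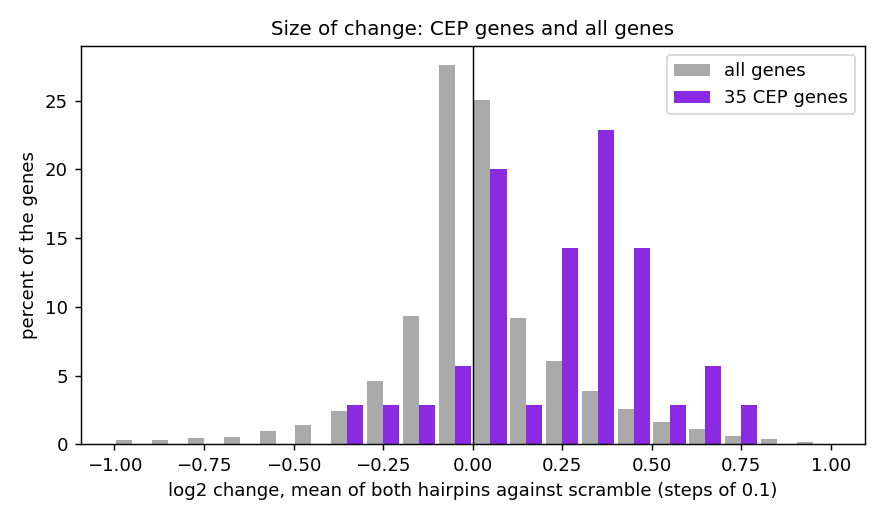
Share of genes (y axis, percent) by log2 change for the hairpins' mean against scramble (x axis, steps of 0.1), for all 14884 genes (grey) and the 35 CEP genes (purple). Of all genes, 206 (1.38%) lie beyond the plotted range; the CEP genes lie mainly to the right of 0, with a median of 0.30.

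The same direction was seen with each hairpin. With shRNA#2, 18 of 35 rose and 0 fell, where 12.1% of all genes were called higher and 9.54% lower (limma). At an unadjusted p under 0.05 from the same fit, 22 members were higher and 1 lower. Of all 14884 genes, 2675 were higher and 2200 lower with shRNA#2 at that threshold. These counts were 3096 and 2204 with shRNA#4 and 3027 and 2291 for the mean, the background of the unadjusted counts given below. With shRNA#4, 16 rose and 1 fell, where 26.1% of all genes were called, 15.7% higher and 10.4% lower. Both comparisons use the same scramble arrays. Of the members, 12 passed as higher in both (CEP20, CEP44, CEP57, CEP72, CEP85, CEP89, CEP120, CEP126, CEP128, CEP170, CEP290 and CEP295). The share of all genes called higher in both was not counted here, so the 12 have no background beside them. Another 6 passed with shRNA#2 alone (CEP41, CEP68, CEP70, CEP78, CEP97 and CEP152) and 4 with shRNA#4 alone (CEP43, CEP76, CEP95 and CEP135). Of the 12, the calls of CEP120, CEP126, CEP128 and CEP170 with each hairpin held without any single array, and in the other 8 at least 1 of both calls ended without some array. The 4 hairpin arrays lay above both scramble arrays in 19 members and below both in 2, where 19.5% and 16.7% of all genes did so.

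**Figure D2:**
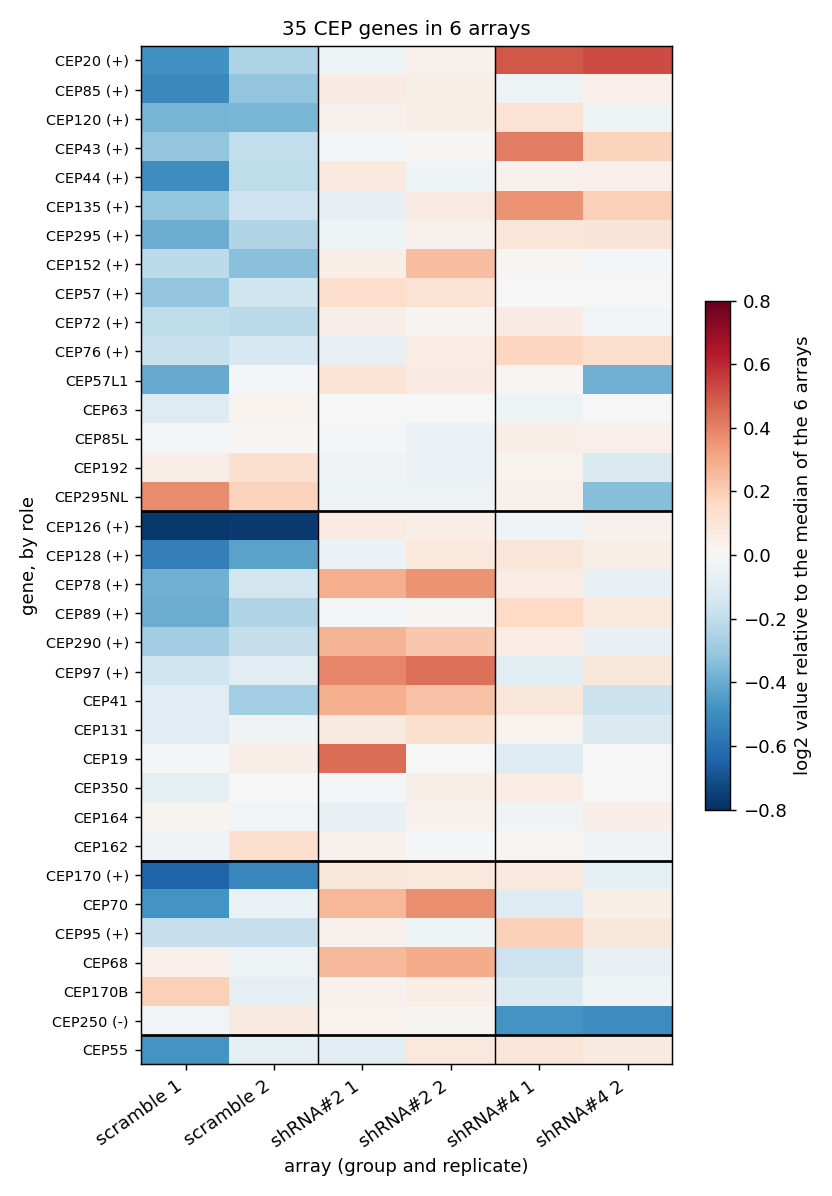
Deposited log2 values, relative to the median of the 6 arrays (colour), of the 35 CEP genes (rows, grouped by role and separated by thick lines: centriole assembly, appendages and cilium, linker and microtubules, abscission) in each array (columns). A plus or minus marks genes called higher or lower for the mean of both hairpins; the scramble columns are blue in the 19 genes marked with a plus.

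The scramble arrays were not equal in these genes. Replicate 1 of scramble lay below replicate 2 in 28 of 35 members (80%), while over all genes it did so in 49.3%, and the median difference between them was -0.090 for the members and 0.0015 for all genes. Without replicate 1 of scramble, 12 members were called for the mean of both hairpins (11 higher, 1 lower), where 16.6% of all genes were called, and the members' median change was 0.23. Without replicate 2 of scramble, 17 were called, all higher, where 19.3% of all genes were, and the median was 0.35. With shRNA#2, 8 members were called when its replicate 1 was left out and 9 without its replicate 2, all higher, where 11.8% and 12.7% of all genes were called, and no named change turned its direction. With the 4 hairpin arrays fitted as a single group, which adds the difference between hairpins to the spread, 10 members were called, and the calls of CEP20, CEP43, CEP76, CEP78, CEP95, CEP97, CEP135, CEP152, CEP250 and CEP290 for the mean ended.

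The promoters of the 3 genes that reached 1.5-fold, and that of CEP89, are shown as those of members that were higher with both hairpins. Each line gives the 250 bases before the RefSeq start (GRCh38.p14), read 5′ to 3′ on the strand of the gene, with capitals at any match to the motifs named in the next paragraph. CEP126 lies at chr11:101914760-101915009 (plus strand), CEP170 at chr1:243255282-243255531 (minus strand), CEP20 at chr16:15888604-15888853 (minus strand) and CEP89 at chr19:32971959-32972208 (minus strand). CEP89 was added after its matches were seen, since its window holds 3 of the 4 motifs.
CEP126: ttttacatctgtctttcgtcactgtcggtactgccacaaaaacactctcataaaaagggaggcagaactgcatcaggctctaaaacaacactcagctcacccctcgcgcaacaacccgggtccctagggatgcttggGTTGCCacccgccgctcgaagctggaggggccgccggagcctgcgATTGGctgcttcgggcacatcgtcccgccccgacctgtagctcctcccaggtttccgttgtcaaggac
CEP170: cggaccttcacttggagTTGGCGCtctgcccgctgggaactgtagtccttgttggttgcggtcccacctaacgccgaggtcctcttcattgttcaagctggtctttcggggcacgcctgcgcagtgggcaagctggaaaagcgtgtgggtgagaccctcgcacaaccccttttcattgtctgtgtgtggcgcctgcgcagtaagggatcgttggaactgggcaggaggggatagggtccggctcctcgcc
CEP20: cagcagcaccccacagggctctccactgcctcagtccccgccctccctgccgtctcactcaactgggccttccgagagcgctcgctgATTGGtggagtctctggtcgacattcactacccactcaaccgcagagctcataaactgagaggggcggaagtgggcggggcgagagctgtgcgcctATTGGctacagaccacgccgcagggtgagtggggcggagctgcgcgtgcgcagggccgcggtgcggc
CEP89: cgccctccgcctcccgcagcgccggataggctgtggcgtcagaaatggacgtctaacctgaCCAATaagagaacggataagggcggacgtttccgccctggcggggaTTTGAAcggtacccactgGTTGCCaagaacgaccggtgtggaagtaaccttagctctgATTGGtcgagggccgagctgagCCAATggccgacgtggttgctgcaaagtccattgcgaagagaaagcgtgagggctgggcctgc

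RefSeq gave such a window for 31 of the 35 members and for 27305 genes in all, and motifs were searched on both strands. The 27305 were not limited to measured or protein-coding genes, as the members are. The NF-Y element CCAAT was found in 17 of the 31 members (54.8%) and in 33.0% of all promoters. It was in 9 of the 18 members that rose for the mean and in 8 of the other 13. The cell cycle homology element TTTGAA was in 7 members (22.6%) and in 13.6% of all. The E2F element TTNGCGC was in 4 (12.9%) and in 6.73% of all. The RFX element GTTGCC, one arm of a motif known from ciliary genes, was in 6 (19.4%) and in 10.1% of all. In this order, these elements were in 5, 3 and 4 of the 18 members that rose and in 2, 1 and 2 of the other 13. In the printed windows, CEP126 holds CCAAT and GTTGCC, CEP170 holds TTNGCGC, CEP20 holds CCAAT at 2 places, and CEP89 holds CCAAT at 3 places with TTTGAA and GTTGCC. The members' windows had a median GC content of 62.4%, beside 58.0% for all promoters. These are matches of letters, and binding was not measured.

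Of the roles, centriole assembly and duplication held the largest share of rises for the mean, with 11 of 16 higher and 0 lower for the mean of both hairpins (limma; 11 higher and 1 lower at an unadjusted p under 0.05). With shRNA#4 the share was again the largest, 10 of 16, and with shRNA#2 it was 8 of 16, below the 7 of 12 of the appendage and cilium genes. Of all genes, 14.8% were higher for the mean, 15.7% with shRNA#4 and 12.1% with shRNA#2. The shares of the roles were not tested against each other. Each gene was placed in a single role from textbook accounts, and the order of the shares depends on that choice. CEP20, CEP43 and CEP72, which rose for the mean and were counted here, are also proteins of centriolar satellites. The 11 were CEP20, CEP43, CEP44, CEP57, CEP72, CEP76, CEP85, CEP120, CEP135, CEP152 and CEP295. CEP20 and CEP43 are related proteins of the centriole and its satellites, and CEP43 is also known as the fusion partner FOP of FGFR1. CEP20 stood at -0.48 and -0.25 in the scramble arrays, at -0.034 and 0.034 with shRNA#2 and at 0.50 and 0.52 with shRNA#4. Its arrays fall into 3 separate levels, lowest in scramble and highest with shRNA#4. The rise was 0.37 ± 0.084 with shRNA#2, 0.87 ± 0.084 with shRNA#4 and 0.62 ± 0.073 for the mean (adjusted p = 0.00212, limma), and the call with shRNA#2 held in 1 of the 6 fits that left out an array. CEP43 stood at -0.31 and -0.19 in scramble, at -0.0084 and 0.0084 with shRNA#2 and at 0.41 and 0.18 with shRNA#4. Its groups did not overlap and had the same order. It rose by 0.40 ± 0.076 for the mean and by 0.55 ± 0.087 with shRNA#4, while 0.25 ± 0.087 with shRNA#2 did not pass (adjusted p = 0.0951, limma).

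CEP85, which acts with STIL in the activation of PLK4, stood at -0.52 and -0.31 in scramble, at 0.064 and 0.047 with shRNA#2 and at -0.039 and 0.039 with shRNA#4. CEP120, a partner of CPAP in centriole elongation, stood at -0.37 and -0.36, at 0.035 and 0.055, and at 0.11 and -0.035 in the same order. In both genes the scramble arrays lay apart from 4 hairpin arrays that were close to each other. The rises for the mean were 0.44 ± 0.066 for CEP85 (1.36-fold, adjusted p = 0.00491, limma) and 0.41 ± 0.054 for CEP120 (1.33-fold, adjusted p = 0.00314, limma). Between the hairpins CEP120 differed by 0.0056 ± 0.062.

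CEP295 and CEP44 take part in the conversion of a new centriole into a centrosome. CEP295 stood at -0.40 and -0.24 in scramble, at -0.033 and 0.033 with shRNA#2 and at 0.099 and 0.11 with shRNA#4, a rise of 0.37 ± 0.058 for the mean. CEP44 stood at -0.50 and -0.20, at 0.081 and -0.036, and at 0.036 and 0.041, a rise of 0.38 ± 0.088. The scramble arrays of CEP44 were 0.30 apart, nearly as far as the change itself, and its call ended without replicate 1 of scramble, replicate 1 of shRNA#2 or either replicate of shRNA#4. The calls of CEP44 with each hairpin likewise held in 1 of 6 such fits. For CEP295 the call for the mean held without any single array, and that with shRNA#2 ended without replicate 1 of scramble or either replicate of shRNA#2.

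CEP152, CEP63 and CEP57 form a ring around the base of the centriole, on which CEP152 and CEP192 recruit the kinase PLK4. CEP152 stood at -0.21 and -0.33 in scramble, at 0.053 and 0.25 with shRNA#2 and at 0.017 and -0.017 with shRNA#4. CEP57 stood at -0.31 and -0.16, at 0.14 and 0.12, and at 0.0047 and -0.0047. Both rose for the mean, CEP152 by 0.35 ± 0.070 and CEP57 by 0.30 ± 0.055, with the scramble arrays below all others. The other two scaffolds did not pass: CEP63 gave 0.029 ± 0.052 and CEP192 gave -0.13 ± 0.056 (adjusted p = 0.152, limma), although all 4 hairpin arrays of CEP192 lay below its scramble arrays. The call of CEP152 for the mean ended without replicate 2 of scramble and that of CEP57 without replicate 1. With shRNA#4 alone CEP152 did not pass (adjusted p = 0.0531, limma).

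CEP135 links the cartwheel of the new centriole to its microtubule wall. It stood at -0.31 and -0.16 in scramble, at -0.066 and 0.066 with shRNA#2 and at 0.36 and 0.19 with shRNA#4. The rise was 0.38 ± 0.075 for the mean and 0.51 ± 0.086 with shRNA#4, and 0.24 ± 0.086 with shRNA#2 did not pass (adjusted p = 0.112, limma). CEP76, which restrains repeated duplication of the centriole, stood at -0.18 and -0.13, at -0.059 and 0.059, and at 0.17 and 0.14. CEP72, a protein of centriolar satellites, stood at -0.20 and -0.22, at 0.046 and 0.019, and at 0.067 and -0.019. These were the smallest of the rises for the mean, 0.23 ± 0.050 for CEP76 and 0.24 ± 0.045 for CEP72. With shRNA#2 alone CEP76 did not pass (adjusted p = 0.120, limma). Without replicate 1 of scramble neither CEP135, CEP76, CEP72 nor CEP43 was called, the calls of CEP76 and CEP72 also ended without replicate 2, and that of CEP76 also without replicate 1 of shRNA#4.

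**Figure D3:**
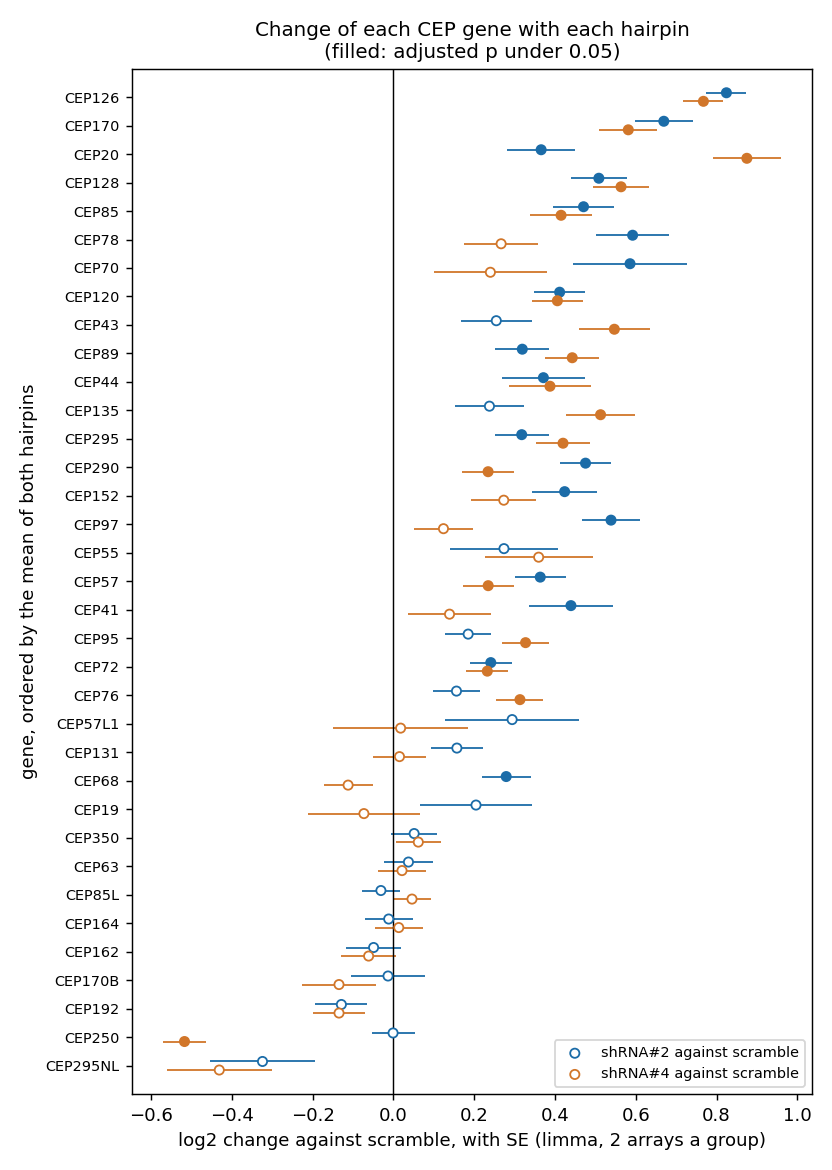
Log2 change against scramble (x axis) of each CEP gene (y axis, ordered by the mean of both hairpins) with shRNA#2 (blue) and shRNA#4 (orange). Bars are SE from the limma fit with 2 arrays per group, and filled points have an adjusted p under 0.05: 18 genes with shRNA#2, and 17 with shRNA#4, of which CEP250 lies at -0.52.

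Among genes of the appendages, the centriolar cap and the cilium, 6 of 12 rose for the mean of both hairpins and 0 fell (limma; 7 higher and 0 lower at an unadjusted p under 0.05). The count was 7 of 12 with shRNA#2 and 4 of 12 with shRNA#4. Of all genes, 14.8% were higher for the mean, 12.1% with shRNA#2 and 15.7% with shRNA#4. Those called for the mean were CEP78, CEP89, CEP97, CEP126, CEP128 and CEP290. CEP126, a microtubule-binding protein of the centrosome and the base of the cilium, had the largest rise of all members. It stood at -0.77 and -0.76 in scramble, at 0.063 and 0.051 with shRNA#2 and at -0.035 and 0.035 with shRNA#4. The replicates of each group were close together, and the scramble arrays lay far below the rest. The rise was 0.80 ± 0.043 for the mean (adjusted p = 0.000264, limma), 0.82 ± 0.049 with shRNA#2 and 0.77 ± 0.049 with shRNA#4. CEP128, a component of the subdistal appendages that anchor microtubules, stood at -0.55 and -0.43, at -0.049 and 0.087, and at 0.099 and 0.049. It rose by 0.54 ± 0.061 (1.45-fold), and neither call ended without any single array.

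CEP89, a protein of the distal appendages, stood at -0.40 and -0.24 in scramble, at -0.0082 and 0.0082 with shRNA#2 and at 0.16 and 0.086 with shRNA#4. Its rise was 0.38 ± 0.058. CEP164, which recruits the kinase TTBK2 to the same appendages, gave 0.0009 ± 0.051 and did not pass. CEP290, a large protein of the transition zone that gates the cilium and is mutated in several ciliopathies, stood at -0.28 and -0.19, at 0.27 and 0.21, and at 0.059 and -0.059. Its scramble arrays lay below all others and its shRNA#2 arrays above all others, and the rise for the mean was 0.36 ± 0.055. The rise of CEP290 with shRNA#4 alone, 0.23 ± 0.064, was called in 1 of the 6 fits that left out an array. CEP78, mutated in a retinal cone-rod dystrophy with hearing loss, stood at -0.39 and -0.15, at 0.29 and 0.36, and at 0.062 and -0.062. Its rise was 0.43 ± 0.079 for the mean and 0.59 ± 0.091 with shRNA#2, and 0.27 ± 0.091 with shRNA#4 did not pass (adjusted p = 0.0850, limma).

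CEP97 caps the centriole together with CP110 and holds back growth of the cilium. It stood at -0.16 and -0.089 in scramble, at 0.39 and 0.44 with shRNA#2 and at -0.088 and 0.088 with shRNA#4. The arrays with shRNA#2 were set apart from the other 4, and the lower shRNA#4 array lay at the upper scramble array. CEP97 rose by 0.54 ± 0.072 with shRNA#2, and 0.12 ± 0.072 with shRNA#4 did not pass. Its call for the mean, 0.33 ± 0.063, ended without replicate 1 of scramble. CEP41, which serves glutamylation of tubulin in cilia, stood at -0.090 and -0.27, at 0.28 and 0.23, and at 0.090 and -0.17. It passed with shRNA#2 alone (0.44 ± 0.10), a call that ended without replicate 2 of scramble or either replicate of shRNA#2.

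The linker and microtubule genes were mixed, with 2 of 6 higher and 1 lower for the mean of both hairpins. Of all genes, 14.8% were higher and 10.6% lower. CEP170 binds microtubules at the subdistal appendages and the spindle. It stood at -0.64 and -0.52 in scramble, at 0.089 and 0.087 with shRNA#2 and at 0.076 and -0.076 with shRNA#4. The scramble arrays were again apart from the rest, and the rise was 0.63 ± 0.062 (1.54-fold, adjusted p = 0.00127, limma). The pseudogene CEP170P1, a copy of part of CEP170, rose by 0.74 ± 0.042 on a probe set of its own, and how far the probe sets of these near-identical sequences share signal was not analysed here, so the value of CEP170 is uncertain. CEP95 stood at -0.19 and -0.18, at 0.037 and -0.037, and at 0.19 and 0.093. It rose by 0.26 ± 0.049 for the mean, a call that ended without either scramble array. With shRNA#2 alone CEP95 did not pass (adjusted p = 0.0701, limma).

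CEP250, also called C-Nap1, is the protein to which the fibres that tie both centrioles together are anchored, and CEP68 is part of those fibres. CEP250 stood at -0.021 and 0.074 in scramble, at 0.031 and 0.021 with shRNA#2 and at -0.48 and -0.50 with shRNA#4. It was at the scramble level with shRNA#2 and lower with shRNA#4 alone. The change was -0.00073 ± 0.053 with shRNA#2 and -0.52 ± 0.053 with shRNA#4 (0.699-fold, adjusted p = 0.00138, limma), and the latter call held without any single array. The mean of both hairpins (-0.26 ± 0.046) therefore does not describe a change that they share, and its call ended without replicate 2 of scramble. CEP68 stood at 0.044 and -0.044, at 0.26 and 0.30, and at -0.17 and -0.059. It rose with shRNA#2 by 0.28 ± 0.061, while -0.11 ± 0.061 with shRNA#4 did not pass. CEP70, a centrosomal protein that binds gamma-tubulin, stood at -0.48 and -0.054, at 0.27 and 0.37, and at -0.10 and 0.054. It passed with shRNA#2 (0.59 ± 0.14), and its scramble arrays were 0.42 apart. The call of CEP68 with shRNA#2 ended without replicate 2 of scramble or either replicate of shRNA#2. For CEP70 it held in 1 of the 6 fits that left out an array, the one without replicate 2 of scramble.

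**Figure D4:**
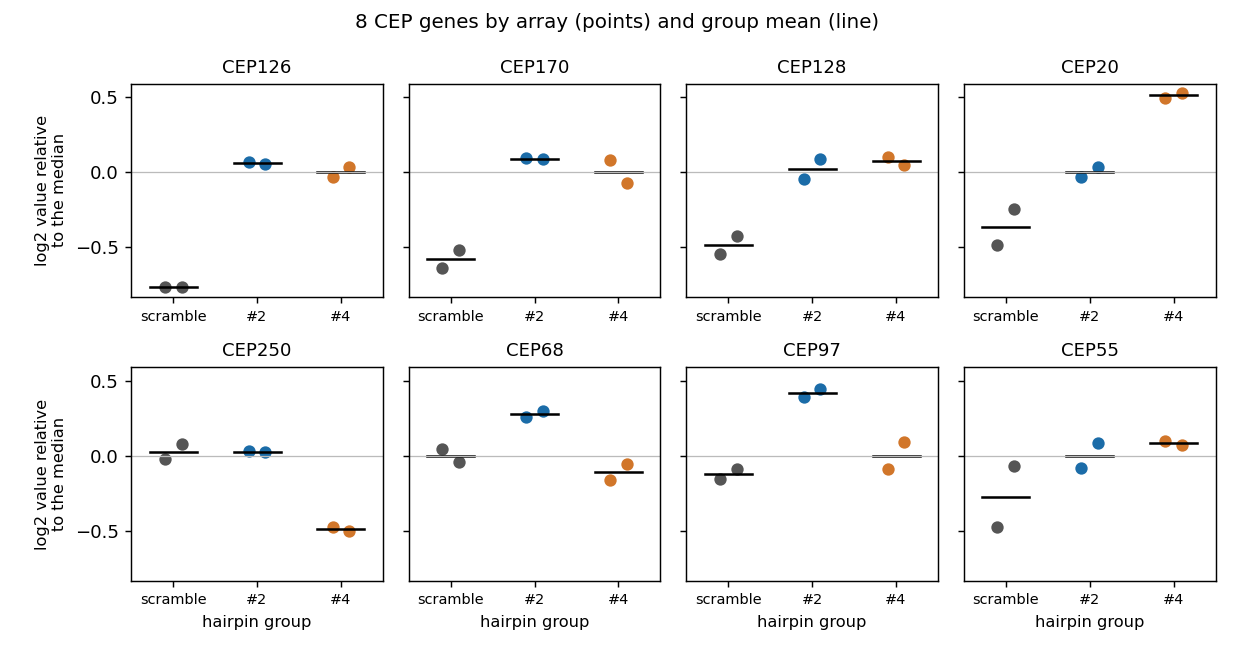
Log2 value relative to the median (y axis) of 8 CEP genes in each array (points) with the mean of each group (line), for scramble, shRNA#2 and shRNA#4 (x axis). CEP126, CEP170 and CEP128 are low in both scramble arrays alone, CEP20 has 3 levels, CEP250 is low with shRNA#4, CEP68 and CEP97 are high with shRNA#2, and the scramble arrays of CEP55 are 0.40 apart.

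Between the hairpins, 4 of 35 CEP genes (11.4%) differed, 3 higher and 1 lower with shRNA#2, where 15.3% of all genes did, 6.64% higher and 8.63% lower (limma, adjusted p under 0.05). The members' median difference was 0.016, beside -0.0089 for all genes. CEP250 was higher with shRNA#2 than with shRNA#4 by 0.52 ± 0.053 (adjusted p = 0.00354), CEP97 by 0.41 ± 0.072 (adjusted p = 0.0153) and CEP68 by 0.39 ± 0.061 (adjusted p = 0.0110), all from limma. CEP20 was lower with shRNA#2 by -0.51 ± 0.084 (adjusted p = 0.0133, limma). Only the difference in CEP250 was called in all 6 fits that left out 1 array. The calls of CEP97, CEP68 and CEP20 ended without either replicate of shRNA#2 or replicate 1 of shRNA#4, and that of CEP20 also without replicate 2 of shRNA#4. The count was 1 without replicate 1 of shRNA#2 or of shRNA#4 and 2 without replicate 2 of shRNA#2, where 5.11%, 8.73% and 6.87% of all genes were called.

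CEP55, which brings the abscission machinery to the midbody and is periodically expressed with the mitotic genes, was not called. It stood at -0.48 and -0.073 in scramble, at -0.086 and 0.083 with shRNA#2 and at 0.096 and 0.073 with shRNA#4. Its shRNA#2 arrays overlapped the scramble arrays, and the change of 0.32 ± 0.12 for the mean did not pass (adjusted p = 0.103, limma). In all, 12 members were called in no comparison: CEP19, CEP55, CEP57L1, CEP63, CEP85L, CEP131, CEP162, CEP164, CEP170B, CEP192, CEP295NL and CEP350. Their changes for the mean ran from -0.38 ± 0.11 (CEP295NL) to that of CEP55, and the smallest adjusted p among them in any comparison was 0.0562 (limma). CEP57L1 and CEP19 had wide errors, with 1 shRNA#4 array of CEP57L1 at -0.38 beside 0.0075 and 1 shRNA#2 array of CEP19 at 0.45 beside 0.0020.

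In 4 cases a gene and its namesake with letters were both measured, and in each the gene without letters was called and the namesake was not. CEP170 rose by 0.63 ± 0.062 and CEP170B, its closest relative, gave -0.074 ± 0.079. CEP85 rose by 0.44 ± 0.066 and CEP85L gave 0.0077 ± 0.040. CEP57 rose by 0.30 ± 0.055 and CEP57L1 gave 0.16 ± 0.14, so for this pair the errors overlap. CEP295 rose by 0.37 ± 0.058 and CEP295NL gave -0.38 ± 0.11. The difference between the members of a pair was not tested.

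Some CEP genes start head to head with another gene. Of 11 divergent neighbours within 1000 bases, 6 were measured, 5 of them beside members that rose, and 1 of these rose as well, a share near the 14.8% of all genes called higher. This was TMTC3 beside CEP290, at 0.40 ± 0.053. SDCCAG8, a centrosomal gene that starts beside CEP170, gave 0.087 ± 0.082 and did not pass. Beside CEP57L1, which was not called, SESN1 fell by 0.29 ± 0.053.

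Other centrosome genes were called in both directions, in lists drawn up with earlier results of these data known, where 14.8% of all genes were higher and 10.6% lower for the mean. Partners of centriole duplication rose in 8 of 14 measured genes and 0 fell for the mean of both hairpins (limma; 9 and 0 at an unadjusted p under 0.05), with a median change of 0.36. RTTN, which is needed for full-length centrioles, rose by 0.68 ± 0.048, POC5 by 0.57 ± 0.098 and the cartwheel protein SASS6 by 0.57 ± 0.093. With shRNA#2 alone POC5 did not pass (adjusted p = 0.0690, limma). Of 10 measured genes of the pericentriolar material and gamma-tubulin, 4 rose and 1 fell. MZT1, a small subunit of the gamma-tubulin complex, rose by 0.68 ± 0.14 and CNTRL by 0.53 ± 0.058, while AKAP9, a scaffold of the centrosome and Golgi, fell by 0.59 ± 0.058. None of the 3 measured linker genes was called (limma; 0 at an unadjusted p under 0.05). Among 12 centriolar satellite genes 4 rose and 1 fell, with TBC1D31 up by 0.41 ± 0.063 and BBS4 down by 0.71 ± 0.046. With shRNA#4 alone TBC1D31 did not pass (adjusted p = 0.0846, limma). The satellite rises were not seen with each hairpin: 5 rose and 1 fell with shRNA#2, and 0 rose and 1 fell with shRNA#4 (limma; 4 higher and 2 lower at an unadjusted p under 0.05). Of all genes, 12.1% were higher and 9.54% lower with shRNA#2, and 15.7% and 10.4% with shRNA#4.

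Genes of the cilium were called in both directions. Of 17 measured genes of distal appendages and the transition zone, 7 rose and 3 fell, with RPGRIP1L up by 0.85 ± 0.046, AHI1 by 0.65 ± 0.054 and C2CD3 by 0.58 ± 0.062. Of 33 genes of intraflagellar transport and the BBSome, which carry cargo along the cilium, 12 rose and 2 fell, with WDR35 up by 0.90 ± 0.11 and TTC8 by 0.62 ± 0.078. BBS4 is in this list too. The median changes of these lists were 0.21 and 0.14. Of all genes, 14.8% were higher and 10.6% lower for the mean.

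**Figure D5:**
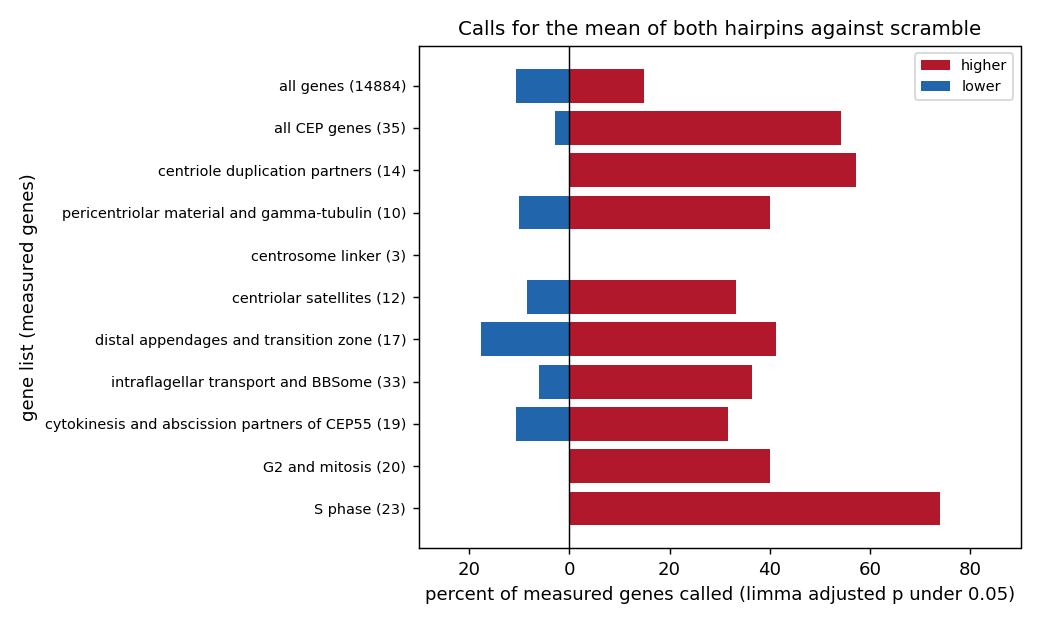
Percent of measured genes called higher (red, to the right) or lower (blue, to the left) for the hairpins' mean against scramble, for all genes, the CEP genes and 9 lists of related genes (y axis, with the number measured). Higher calls make up 14.8% of all genes, 54.3% of the CEP genes and 73.9% of the S phase genes.

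Cell cycle genes were called mainly as higher for the mean of both hairpins, where 14.8% of all genes were higher and 10.6% lower. Of 23 measured S phase genes 17 rose and 0 fell (limma; 18 and 1 at an unadjusted p under 0.05), with a median of 0.47 and with MCM10 up by 1.005 ± 0.092. Of 20 G2 and mitosis genes 8 rose and 0 fell (11 and 1 unadjusted), with a median of 0.28 and with the mitotic kinase TTK up by 0.44 ± 0.072. With shRNA#2, 12 of the 20 were higher and 0 lower, and with shRNA#4 6 were higher and 1 lower. Between the hairpins, 5 were higher and 0 lower with shRNA#2, where 6.64% of all genes were higher and 8.63% lower. The S phase counts were 12 higher and 1 lower with shRNA#2 and 17 and 0 with shRNA#4. Of all genes, 12.1% were higher and 9.54% lower with shRNA#2, and 15.7% and 10.4% with shRNA#4. Cytokinesis and abscission partners of CEP55 rose in 6 of 19 and fell in 2, with ECT2 up by 0.49 ± 0.075 and CHMP2B down by 0.43 ± 0.044. ECT2 was called with shRNA#2 (0.76 ± 0.087) and not with shRNA#4 (0.22 ± 0.087). The share of these partners that was lower was near that of all genes (10.6%). With shRNA#2, 7 were higher and 2 lower, where 12.1% of all genes were higher. With shRNA#4, 3 were higher and 3 lower, and the 15.8% higher was near the 15.7% of all genes. The median of the CEP genes was -0.21 and -0.15 in the scramble arrays, 0.037 and 0.051 with shRNA#2, and 0.041 and -0.0020 with shRNA#4. The S phase genes stood at -0.39 and -0.23, at 0.0002 and -0.012, and at 0.19 and 0.17, and the G2 and mitosis genes at -0.28 and 0.0032, at 0.14 and 0.11, and at -0.015 and -0.017. All 3 sets were lowest in replicate 1 of scramble, and the part of the cell cycle genes in the result was not tested.

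Markers of the colon epithelium were called mainly as lower, with 5 of 10 measured lower and 0 higher for the mean (limma; 5 and 1 at an unadjusted p under 0.05). With shRNA#2, 4 were lower and 0 higher, and with shRNA#4, 3 were lower and 1 higher. Of all genes, 10.6% were lower for the mean, 9.54% with shRNA#2 and 10.4% with shRNA#4. KRT20 was down by 1.19 ± 0.21, and its scramble arrays lay far apart, at 1.56 and 0.75. Of 5 genes that mark multiciliated cells, in which centrosomal genes are abundant, 2 passed as higher for the mean, where 14.8% of all genes did. These were MYB by 0.21 ± 0.048 and MCIDAS by 0.17 ± 0.042, and the median of the 5 was 0.044. MYB did not pass with shRNA#4 (adjusted p = 0.132, limma), nor MCIDAS with shRNA#2 (adjusted p = 0.146, limma). The array medians of the multiciliated markers ran from -0.080 to -0.060 in scramble and from 0 to 0.063 in the hairpin arrays. Of the genes listed as immune, endothelial and fibroblast markers, 2, 2 and 1 were measured. LYZ fell by 1.16 ± 0.10, VIM rose by 0.28 ± 0.048 and 0 of the endothelial genes were called (limma; 0 at an unadjusted p under 0.05). VIM was called with shRNA#4 (0.42 ± 0.056) and not with shRNA#2 (0.14 ± 0.056). Whether the listed genes mark these cell types within 1 cell line was not analysed here. The part of these markers in the CEP result was not tested.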

How the data were processed

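Per the values themselves, the deposited log2 data hold 1 number per probe set and array, from which the authors had taken the probe set's 6-array median (all 48144 medians lay within 5e-07 of 0). Per the labels' protocols, 100 ng of total RNA was labelled with the WT PLUS kit. For background correction, summarisation, normalization and software, the methods are not stated in the sources used here, and base 2 was assumed. Probe sets were named through the platform table and RefSeq (16098 with 1 symbol, 0 with several, 32046 with none, 0 symbols updated) and averaged per gene.

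Groups follow the sample titles. In limma 3.58.1 (R 4.3.3), 1 linear fit of 6 arrays and 3 groups gave 4 comparisons, with variances moderated by a prior of 3.09 degrees of freedom beside 3 of the residuals, and p-values adjusted by Benjamini-Hochberg. The fit was run on simulated data drawn from its own variance model, with equal changes in both hairpin groups. That run checks the code, and does not bear on how well the model describes these arrays. The number of arrays limits the precision, and with no levels no filter on dim probe sets was set. The CEP members, roles, gene lists, motifs and tests were chosen with earlier results of these data known. Members called in any comparison were named with all 6 values, and from each list up to 3 called genes with the largest change. Alternatives covered normalization, variance model, block, probe sets, grouping, threshold and left-out arrays. Figures used matplotlib 3.10.9.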

Additional observations from a re-analysis of the deposited data

Results flagged for a closer look

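In 4 CEP genes the change against scramble differed between the hairpins by a test of the difference itself (limma, adjusted p under 0.05), shRNA#2 minus shRNA#4, with 2 arrays per group. CEP250 differed by 0.52 (adjusted p = 0.00354), with both shRNA#4 arrays below the other 4. CEP68 differed by 0.39 (adjusted p = 0.0110), with both shRNA#2 arrays above the other 4. CEP97 differed by 0.41 (adjusted p = 0.0153), also with both shRNA#2 arrays above the other 4. CEP20 differed by -0.51 (adjusted p = 0.0133), with both shRNA#4 arrays above the other 4. In all, 15.3% of genes were called in this comparison and 11.4% of the CEP genes.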

How the results depend on the processing

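Of 59 calls of single CEP genes in the 4 comparisons, 0 changed sign under the alternatives run. Only quantile normalization, centred array medians and left-out arrays could move the estimate of a change. The other alternatives altered its error or threshold alone and could not turn its sign. With the threshold at 0.01 the counts of CEP genes called were 8 (shRNA#2), 11 (shRNA#4), 10 (mean of both hairpins) and 1 (between hairpins), where 10.6%, 14.3%, 14.5% and 5.17% of all genes were called. With the hairpin arrays as a single group 10 were called for the mean, where 11.8% of all genes were. Leaving out 1 array gave 8 to 17 for shRNA#2, 12 to 19 for shRNA#4, 12 to 21 for the mean and 1 to 6 between the hairpins, and the median change ran from 0.23 to 0.35. In these fits the lone array of a group is assumed to vary like the others. The median was 0.26 after quantile normalization and 0.33 for symbols with digits alone. With only the arrays compared, the calls of CEP20, CEP44 and CEP70 with shRNA#2 and of CEP44, CEP57 and CEP290 with shRNA#4 ended. Quantile normalization ended those of CEP44 with shRNA#2 and of CEP57 and CEP290 with shRNA#4. Fitted over protein-coding genes alone, 23 members were called for the mean, where 31.4% of those genes were. The replicate block gave 17, 18, 23 and 6 calls in the order above, where 24.2%, 28.4%, 27.9% and 17.7% of all genes were called. It ended 1 single call, that of CEP44 with shRNA#2. The replicate numbers share only a name. Differences between replicates correlated across genes at 0.18, 0.12 and 0.20 between groups, a hint from the data alone. The call of CEP44 with shRNA#2 also ended under the robust prior, with all probe sets singly and with 1 probe set per gene. Centred array medians, array weights, the prior trend and protein-coding genes only ended 0 of the 59. Background correction and filters on dim probe sets were not run because the values hold no levels, which also limits what can be said of dim genes. The cause of these differences was not tested.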
